A study of Arabidopsis thaliana with 12 samples.

Results

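The 7 genes followed here were ADH1, PDC1, PDC2, LDH1 and AlaAT1, which encode enzymes that use pyruvate or its product acetaldehyde when respiration is short of oxygen, and SUS1 and SUS4, which encode sucrose synthases. They were picked by AGI locus and are 7 of the 23396 genes in the deposited table. All 7 passed the filter on low counts that left 20074 genes for testing. RNA-seq was carried out on whole seedlings of wild-type Arabidopsis, accession Col-0, in 4 groups of 3 biological replicates: hypoxia/mock (HM), normoxia/flg22 (NF), hypoxia/flg22 (HF) and normoxia/mock (NM). Each sample was made from 5 seedlings at day 10. The flg22 groups received the peptide at 100 nM and the mock groups received water, hypoxic seedlings were placed in anaerojars while normoxic ones stayed in ambient air, and both treatments ran together for 1 h. All groups shared growth on sucrose-containing agar in continuous light and a night in shaken liquid medium, so every seedling had been given sugar before the treatments.

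When oxygen runs out, mitochondria can no longer reoxidize NADH, and glycolysis continues only if NAD+ is restored in another way. Pyruvate decarboxylase converts pyruvate to acetaldehyde and alcohol dehydrogenase reduces this to ethanol, lactate dehydrogenase reduces pyruvate directly to lactate, and alanine aminotransferase moves an amino group from glutamate to pyruvate, which stores carbon as alanine without making ethanol. Sucrose synthase splits sucrose with UDP into fructose and UDP-glucose, a route that costs less ATP than cleavage by invertase followed by hexokinase. In Arabidopsis several of these genes are well known as targets of low oxygen, where group VII ERF transcription factors are stabilized. The peptide flg22 is a piece of bacterial flagellin that is perceived by the receptor kinase FLS2 and starts pattern-triggered immunity.

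Total counts lay between 21307658 and 21554056 per sample. Markers of leaf tissue (RBCS1A, LHCB1.3 and CA1) summed to 24580 to 33050 CPM (counts normalized to the library size after TMM scaling) over the 12 samples, and markers of root tissue (COBL9, EXPA7 and CASP1) to 7.34 to 46.9 CPM, so that both organs were present, as the label of whole seedlings says, and none of the 6 genes was at 0. None of them passed the cutoffs in any comparison. A list of 5 genes known for their induction by hypoxia (LBD41, HRE1, HB1, PCO1 and PCO2) summed to 401 to 1015 CPM in HM, 74.9 to 211 CPM in NF, 921 to 2395 CPM in HF and 34.2 to 49.2 CPM in NM. Among flg22 markers, CYP81F2, a P450 of indole glucosinolate metabolism, had 662 to 1629 CPM in NF and 1092 to 1415 CPM in HF, against 20.9 to 55.9 CPM in NM. It stood at 352 CPM in HM replicate 1, compared to 40.2 and 64.9 CPM in the other HM samples.

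In the RefSeq annotation of TAIR10.1, ADH1 (AT1G77120) has 7 exons on chromosome 1, chr1:28975255-28977417, plus strand. PDC1 (AT4G33070) has 5 exons at chr4:15952257-15954803 on the minus strand, whereas PDC2 (AT5G54960) is a gene of a single exon at chr5:22310553-22312832, also on the minus strand. LDH1 (AT4G17260) has 2 exons at chr4:9673897-9675540, plus strand, and AlaAT1 (AT1G17290) has 14 exons at chr1:5922332-5926400, plus strand. SUS1 (AT5G20830) and SUS4 (AT3G43190) have 13 exons each, at chr5:7050217-7055398 and chr3:15179010-15184105, both on the minus strand. Coding sequences are of equal length within each pair, 1824 bases for PDC1 and PDC2 and 2427 bases for SUS1 and SUS4. The aligned coding sequences are 76.4% identical for PDC1 and PDC2 and 84.5% identical for SUS1 and SUS4, and neither pair shares a single identical stretch of 100 bases. All 84 deposited values of the 7 genes were whole numbers.

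The stretches just upstream of 5 of the genes are shown, because genes of different enzyme families were followed together. Those of LDH1 and PDC2 were searched in the same way and are not printed. Each is the 250 bases before the annotated start of the gene, 5′ to 3′ on the strand of the gene, with every AAACCA, and its reverse complement TGGTTT, in capitals. AAACCA is a short element known from anaerobically induced plant promoters.
ADH1, chr1:28975005-28975254, plus strand: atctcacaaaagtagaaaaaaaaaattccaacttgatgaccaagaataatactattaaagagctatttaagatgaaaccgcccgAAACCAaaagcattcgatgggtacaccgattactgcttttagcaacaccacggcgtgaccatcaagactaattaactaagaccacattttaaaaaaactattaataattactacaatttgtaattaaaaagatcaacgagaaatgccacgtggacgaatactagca
PDC1, chr4:15954804-15955053, minus strand: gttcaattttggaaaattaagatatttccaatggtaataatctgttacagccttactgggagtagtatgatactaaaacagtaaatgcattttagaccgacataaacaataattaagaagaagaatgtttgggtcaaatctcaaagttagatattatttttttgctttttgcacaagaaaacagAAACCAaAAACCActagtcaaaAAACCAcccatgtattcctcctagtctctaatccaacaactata
AlaAT1, chr1:5922082-5922331, plus strand: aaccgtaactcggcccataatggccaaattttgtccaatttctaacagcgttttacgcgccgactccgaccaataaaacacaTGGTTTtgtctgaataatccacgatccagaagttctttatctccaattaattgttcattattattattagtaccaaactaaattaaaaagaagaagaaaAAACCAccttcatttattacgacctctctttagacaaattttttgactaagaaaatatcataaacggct
SUS1, chr5:7055399-7055648, minus strand: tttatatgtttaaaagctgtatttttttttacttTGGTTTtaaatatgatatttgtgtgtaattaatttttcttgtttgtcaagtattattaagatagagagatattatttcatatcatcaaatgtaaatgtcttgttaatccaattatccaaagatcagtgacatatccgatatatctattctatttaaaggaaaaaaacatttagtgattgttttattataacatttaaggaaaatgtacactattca
SUS4, chr3:15184106-15184355, minus strand: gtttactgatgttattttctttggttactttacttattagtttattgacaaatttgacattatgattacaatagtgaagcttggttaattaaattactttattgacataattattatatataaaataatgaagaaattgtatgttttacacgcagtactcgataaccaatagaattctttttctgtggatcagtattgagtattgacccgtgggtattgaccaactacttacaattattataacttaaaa

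On either strand, AAACCA was in the window of 5 of the 7 genes (ADH1, PDC1, LDH1, AlaAT1 and SUS1), compared to 27.3% of the windows of 27443 protein-coding genes. PDC1 held 3 copies, all between 66 and 39 bases before the start, and AlaAT1 held 2. No copy was in the windows of PDC2 and SUS4, and the window of PDC2 lies partly in the neighbouring gene AT5G54970. The cores of the W-box, TTGACC and TTGACT, to which WRKY factors bind, were searched in the same way, and at least one of them was found in PDC1, AlaAT1 and SUS4, compared to 28.4% of all windows. One of those in PDC1 lies between copies of AAACCA without overlapping them. The G-box CACGTG was in ADH1 and PDC2, compared to 6.5% of all windows. GCCCC, searched as a GC-type anaerobic element, was in 0 of the 7 windows, compared to 4.6% of all windows. These matches describe letters in a window and were not tested as sites.

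The ethanol branch starts with the pyruvate decarboxylases. PDC1 had 392, 36.0 and 158 CPM in HM replicates 1 to 3, 7.82, 2.32 and 2.17 CPM in NF, 438, 774 and 244 CPM in HF, and 5.55, 0.74 and 1.08 CPM in NM. The 6 hypoxic samples all lay above the 6 normoxic ones, and the lowest hypoxic sample, HM replicate 2, still exceeded the highest normoxic one, NF replicate 1. The paralog PDC2 had 231, 110.4 and 195 CPM in HM, 94.4, 58.8 and 99.7 CPM in NF, 196, 282 and 148 CPM in HF, and 74.4, 65.9 and 118 CPM in NM. HF did not overlap NM, whereas HM replicate 2 was below NM replicate 3. ADH1, the alcohol dehydrogenase that completes ethanol formation, had 177, 35.1 and 107 CPM in HM, 7.49, 12.4 and 11.2 CPM in NF, 184, 482 and 113 CPM in HF, and 9.06, 7.95 and 15.3 CPM in NM. As for PDC1, all hypoxic samples were above all normoxic ones. The samples of NF and NM overlapped.

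LDH1, the lactate dehydrogenase, had 75.4, 12.4 and 26.9 CPM in HM, 26.8, 10.9 and 13.6 CPM in NF, 67.0, 93.1 and 52.9 CPM in HF, and 21.9, 10.0 and 9.19 CPM in NM. Only HF was clear of both normoxic groups, since HM replicate 2 lay below NM replicate 1 and NF replicate 1. AlaAT1, the alanine aminotransferase, had 461, 247 and 299 CPM in HM, 360.2, 543 and 425 CPM in NF, 695, 1153 and 596 CPM in HF, and 152, 169 and 201 CPM in NM. Here every sample of HM, NF and HF was above every NM sample, and every HF sample was above every sample of the other groups.

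Of the sucrose synthases, SUS1 had 99.9, 30.1 and 56.6 CPM in HM, 23.2, 22.0 and 25.0 CPM in NF, 100.5, 281 and 71.4 CPM in HF, and 21.2, 16.5 and 21.7 CPM in NM. SUS4 had 102, 7.28 and 15.1 CPM in HM, 6.34, 2.17 and 1.77 CPM in NF, 85.4, 199 and 32.6 CPM in HF, and 4.91, 0.51 and 0.91 CPM in NM. For both genes all hypoxic samples lay above all normoxic ones, although HM replicate 2 was within 1 CPM of NF replicate 1 for SUS4. The share of all tested genes separated in this way, as PDC1, ADH1, SUS1 and SUS4 were, was not counted. Normoxic levels of SUS4 rested on few reads, with 154, 42 and 36 counts in NF and 130, 11 and 21 counts in NM.

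**Figure D1:**
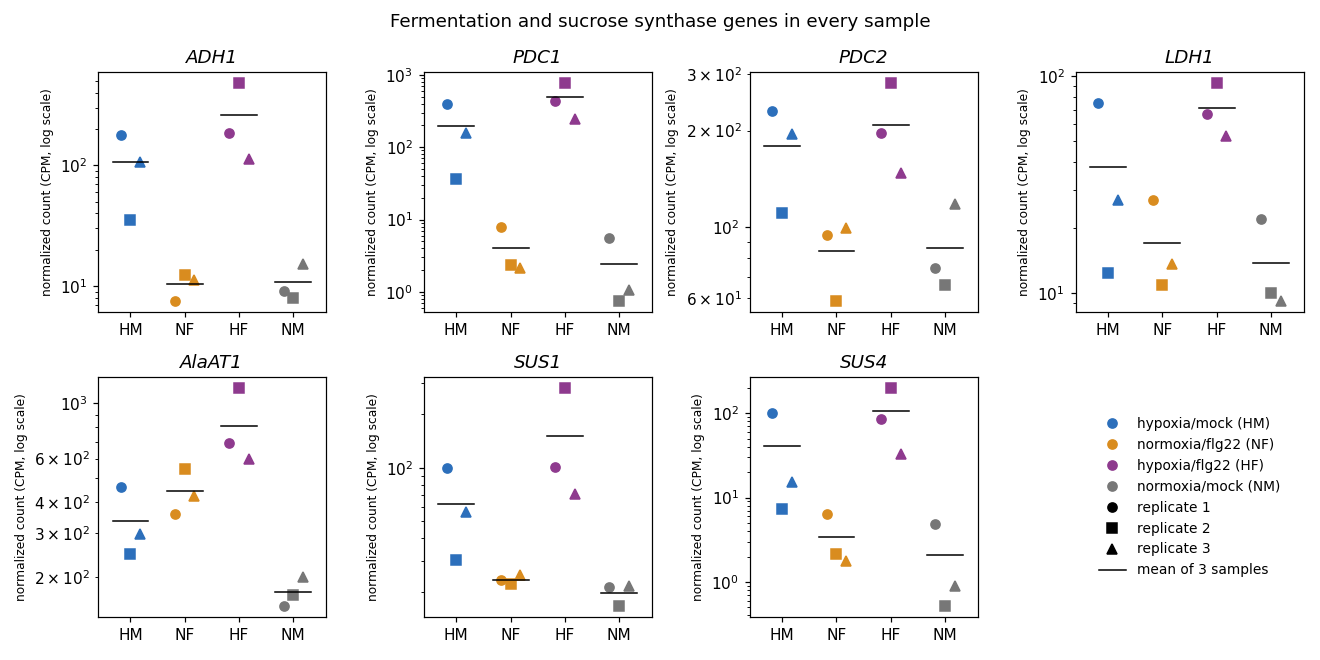
Normalized counts (CPM, log scale) of the 7 genes in every sample, with groups along the x axis, a colour for each group, a symbol for each replicate number and a line at the mean of 3 samples. For PDC1, the 6 hypoxic samples sit between 36.0 and 774 CPM and the 6 normoxic samples between 0.74 and 7.82 CPM, while AlaAT1 is lowest in the 3 NM samples (152 to 201 CPM).

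Levels were compared between genes per kilobase of coding sequence. In NM, AlaAT1 had the highest level (107 ± 14.98 CPM per kb; SD, n = 3), followed by PDC2 (47.3 ± 15.5), and the samples of these genes did not overlap each other or those of the next gene. LDH1 (12.9 ± 6.70), ADH1 (9.43 ± 3.46) and SUS1 (8.16 ± 1.17) came next in CPM per kb and did not differ beyond their spread. PDC1 (1.35 ± 1.47) and SUS4 (0.87 ± 1.00) were lowest in CPM per kb, with overlapping samples. NF had the same genes at the top and bottom, and AlaAT1 there reached 271 ± 56.7 CPM per kb. In HF the order was AlaAT1 (499 ± 182 CPM per kb), PDC1 (266 ± 147), ADH1 (228 ± 172), PDC2 (114 ± 37.2), LDH1 (66.9 ± 19.2), SUS1 (62.2 ± 46.8) and SUS4 (43.6 ± 35.1), and the samples of each gene overlapped those of the next. PDC1 thus stood sixth of the 7 genes in NM and second in HF. In HM it was second as well, at 107 ± 99.2 CPM per kb, and neighbours in that order overlapped throughout.

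The combined treatment was compared with untreated seedlings first, because it gave the most calls among the 7 genes. In HF vs NM, all 7 genes were upregulated past the cutoffs (adjusted p-value under 0.05 and at least a 1.5-fold change), where 7.85% of all tested genes were called higher. Every HF sample was also above every NM sample for all 7, compared to 14.8% of tested genes. The median log2 fold change (log2FC) of the 7 was 2.93, against -0.05 for all tested genes. In extracts of whole seedlings, a change in RNA per cell cannot be told apart from a change in how many cells of a type were present.

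PDC1 had the highest log2FC of the 7, 7.61 ± 1.20 (SE), a 195-fold difference with an adjusted p of 0.00270, and its 95% confidence interval ran from 4.96 to 10.3. SUS4 rose by 5.62 ± 1.28 on the log2 scale (49.3-fold, adjusted p = 0.0161) and ADH1 by 4.59 ± 0.69 (24.1-fold, adjusted p = 0.00223). For SUS1 the log2FC was 2.93 ± 0.53 (7.62-fold, adjusted p = 0.00516), for LDH1 2.37 ± 0.63 (5.17-fold, adjusted p = 0.0345) and for AlaAT1 2.23 ± 0.32 (4.68-fold, adjusted p = 0.00196). PDC2, which was already well expressed in NM, had a log2FC of 1.27 ± 0.36 (2.42-fold, adjusted p = 0.0435). ADH1, PDC1, AlaAT1 and SUS1 stayed past the cutoffs under each of 20 alternative fits, but single samples decided several values.

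Without HF replicate 2, the log2FC in HF vs NM was 3.79 for ADH1, 2.12 for SUS1 and 4.78 for SUS4, and without NM replicate 1 it was 9.04 for PDC1 and 7.20 for SUS4. The call of PDC2 was lost without HF replicate 2 (adjusted p = 0.168), HF replicate 1 (0.0822), NM replicate 1 (0.121), NM replicate 2 (0.155), HM replicate 3 (0.0639), NF replicate 1 (0.0529) or NF replicate 3 (0.0605). It was also lost in a fit of HF and NM only (0.0616), and its adjusted p ranged from 8.97e-04 to 0.168 over the alternatives. LDH1 lost its call without NM replicate 3 (adjusted p = 0.133), NM replicate 2 (0.126), HF replicate 2 (0.108), HF replicate 1 (0.0667) or NF replicate 3 (0.0508), within a range of 3.43e-08 to 0.133. SUS4 lost it without NM replicate 3 (0.0746) or NM replicate 2 (0.0646), within a range of 5.29e-11 to 0.0746. Its fit rested on the low counts of NM.

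Hypoxia alone was then compared with untreated seedlings. In HM vs NM, edgeR called 0 of the 7 genes and 0 of 20074 tested genes (0% called), although all 7 genes had a log2FC above 0 and an unadjusted p under 0.05, as had 1191 genes in all. The samples of HM were above those of NM without overlap for 5 of the 7 (ADH1, PDC1, AlaAT1, SUS1 and SUS4), compared to 5.54% of tested genes. The log2FC was 6.30 ± 1.13 (SE) for PDC1 (adjusted p = 0.159), 4.27 ± 1.20 for SUS4 (0.55), 3.31 ± 0.65 for ADH1 (0.194), 1.65 ± 0.51 for SUS1 (0.589), 1.48 ± 0.61 for LDH1 (0.787), 1.05 ± 0.35 for PDC2 (0.652) and 0.95 ± 0.31 for AlaAT1 (0.611). All of these intervals at 95% confidence excluded 0, from 0.13 to 2.82 for LDH1 up to 3.80 to 8.79 for PDC1, before any adjustment for the number of genes.

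Same-numbered samples of HM and NM deviated together from their group means, which the main fit did not take into account. All 7 genes were higher in HM than in NM in each of the 3 same-numbered pairs. The share of all tested genes that were higher in all 3 pairs was not counted. Within pairs, the log2 difference was 6.12, 5.43 and 7.08 for PDC1 and 4.35, 3.61 and 3.93 for SUS4. For ADH1 it was 4.28, 2.13 and 2.80, and for LDH1 1.78, 0.30 and 1.54. For AlaAT1 it was 1.60, 0.55 and 0.58, so highest in replicate 1, and its log2FC was 0.65 to 1.13 without any one sample. With the replicate number as a block, edgeR called PDC1 (log2FC 6.39, adjusted p = 0.0434) and none of the other 6, where 0.0598% of tested genes were called higher. DESeq2 called ADH1, PDC1 and SUS4 in a fit of all samples (0.625% of genes called higher) and SUS1 in addition in a fit of HM and NM only (0.543%). Without HM replicate 2, edgeR called ADH1 and PDC1 (adjusted p = 0.0355 for both). Without HM replicate 1 it called no gene. The log2FC was then 5.29 for PDC1 (adjusted p = 0.361), 2.39 for SUS4 (0.693) and 0.52 for LDH1 (0.739), so these values depended on that sample. The adjusted p over all alternatives ran from 2.05e-12 to 0.771 for PDC1 and from 8.01e-06 to 0.771 for ADH1.

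The effect of hypoxia in seedlings that also received flg22 was read from HF vs NF. All 7 genes were higher in every HF sample than in every NF sample, compared to 5.08% of tested genes. However, edgeR called 0 of the 7 and 0 of 20074 (0% called), with all 7 and 992 genes in all at an unadjusted p under 0.05. The log2FC was 6.88 ± 1.16 (SE) for PDC1 (adjusted p = 0.11), 4.93 ± 1.23 for SUS4 (0.443), 4.65 ± 0.70 for ADH1 (0.0921), 2.69 ± 0.53 for SUS1 (0.179), 2.05 ± 0.62 for LDH1 (0.649), 1.31 ± 0.36 for PDC2 (0.542) and 0.88 ± 0.31 for AlaAT1 (0.83). DESeq2 called ADH1, PDC1, SUS1 and SUS4 in a fit of all samples (0.347% of genes called higher) and also PDC2 and LDH1 in a fit of HF and NF only (0.48%), so AlaAT1 was the one gene of the 7 that neither called. Without HM replicate 2, a sample of neither group that enters the shared estimate of the spread, edgeR called ADH1 (adjusted p = 0.0416, with a range of 2.57e-15 to 0.448 over the alternatives).

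With flg22 alone, AlaAT1 was the only one of the 7 genes past the cutoffs. In NF vs NM it rose by 1.35 ± 0.31 (SE) on the log2 scale, or 2.54-fold (adjusted p = 0.0233), in a comparison where 6.43% of tested genes were called higher, and the difference within pairs was 1.24, 1.68 and 1.08. AlaAT1 and SUS1 were higher in every NF sample than in every NM sample, compared to 12.3% of tested genes. It kept its call with the replicate block (log2FC 1.33, adjusted p = 0.0191), where 9.08% of tested genes were called higher. The call was lost without NF replicate 2 (0.101), NF replicate 3 (0.0663), NM replicate 1 (0.0788), NM replicate 2 (0.0934) or NM replicate 3 (0.0598), and the log2FC stayed between 1.17 and 1.47 without any one sample. The remaining 6 genes had a log2FC of 0.73 (95% confidence interval -1.35 to 2.82) for PDC1, 0.69 (-1.77 to 3.15) for SUS4, 0.32 (-1.01 to 1.65) for LDH1, 0.24 (-0.86 to 1.34) for SUS1, -0.03 (-0.81 to 0.74) for PDC2 and -0.06 (-1.39 to 1.28) for ADH1. These intervals leave room for a change of more than 1.5-fold in either direction. Within pairs the difference was 0.49, 1.53 and 0.95 for PDC1, 0.36, 1.90 and 0.90 for SUS4, 0.29, 0.12 and 0.56 for LDH1 and 0.13, 0.41 and 0.20 for SUS1. With the replicate block the log2FC was 0.87 for PDC1, 0.88 for SUS4 and 0.33 for LDH1, none of them called. Without NF replicate 1, which leaves NM replicate 1 without its partner, the log2FC was -0.15 for PDC1, -0.12 for SUS4 and -0.16 for LDH1.

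AlaAT1 was also the only one of the 7 called in the comparison of flg22 and mock under hypoxia. In HF vs HM its log2FC was 1.28 ± 0.31 (SE), or 2.43-fold (adjusted p = 0.0450), where 3.84% of tested genes were called higher, and every HF sample was above every HM sample, as for 12.1% of tested genes. This call held in 2 of 12 fits that left out one sample, those without HM replicate 1 or NF replicate 1, with an adjusted p of 0.0546 to 0.184 in the other 10. It was also lost in a fit of HF and HM only (0.147) and with library size as the only scaling (0.0612). The other 6 genes had a log2FC of 0.22 to 1.35, none past the cutoffs, and their HF and HM samples overlapped. Their differences between same-numbered samples were uneven, since HF replicate 2 exceeded HM replicate 2 by 4.76 for SUS4, 4.43 for PDC1 and 3.77 for ADH1 on the log2 scale, whereas the difference for replicate 1 was -0.25, 0.16 and 0.05.

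Whether hypoxia and flg22 together differed from the sum of both was tested as the interaction, (HF - NF) - (HM - NM). Both edgeR and DESeq2 on all samples called 0 of the 7 genes and 0 genes in all (0% called), and edgeR gave 227 genes and none of the 7 at an unadjusted p under 0.05. DESeq2 with the replicate block called 20 genes, none of them among the 7. AlaAT1, which had a positive log2FC with hypoxia alone and was upregulated with flg22 alone, had an interaction of -0.07 with a 95% confidence interval of -1.02 to 0.89 on the log2 scale. For ADH1 it was 1.34 (-0.54 to 3.22) and for SUS1 1.04 (-0.51 to 2.59). The widest interval was that of SUS4, 0.66 (-2.70 to 4.02), so that an interaction of several fold was not detectable for this gene, whereas PDC2 had 0.25 (-0.84 to 1.35).

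**Figure D2:**
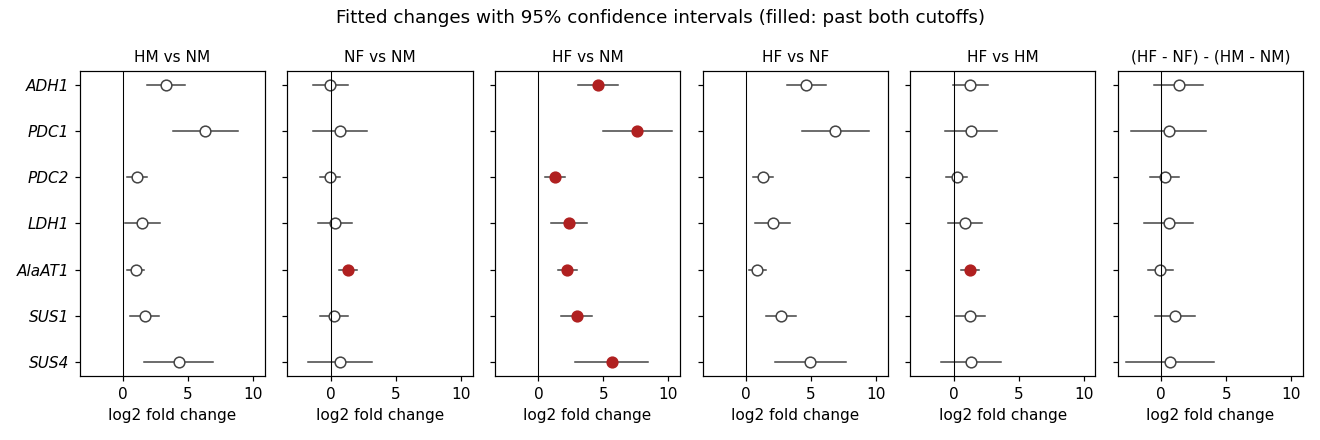
Fitted log2 fold changes (x axis) of the 7 genes in 5 comparisons and in the interaction, with 95% confidence intervals as lines and filled points for genes past both cutoffs. All 7 genes are filled in HF vs NM, AlaAT1 alone is filled in NF vs NM and HF vs HM, and none is filled in HM vs NM, HF vs NF or the interaction.

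The spread between hypoxic samples was shared by the genes. Among the 6 hypoxic samples, HF replicate 2 had the highest and HM replicate 2 the lowest level of all 7 genes. ADH1, PDC1 and SUS1 ranked the 6 samples in one and the same order: HF replicate 2, HF replicate 1, HM replicate 1, HF replicate 3, HM replicate 3 and HM replicate 2. LBD41 is a transcription factor gene used as a check of the hypoxia treatment. Its NF samples (37.85 to 155 CPM) were also all above its NM samples (12.7 to 21.6 CPM), as for 12.3% of tested genes. It ranked the 6 hypoxic samples in the order of ADH1 too, with 1932 CPM in HF replicate 2 and 306 CPM in HM replicate 2. The highest sample exceeded the lowest by 27.4-fold for SUS4, 21.5-fold for PDC1, 13.7-fold for ADH1, 9.35-fold for SUS1, 7.54-fold for LDH1, 4.67-fold for AlaAT1 and 2.55-fold for PDC2. The highest and lowest samples were of different groups, so these folds also hold the difference between HF and HM. Within groups, PDC1 ran from 36.0 to 392 CPM in HM and from 244 to 774 CPM in HF. AlaAT1 ran from 247 to 461 CPM in HM and from 596 to 1153 CPM in HF. The part of jar, time or seedlings in these differences was not tested.

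**Figure D3:**
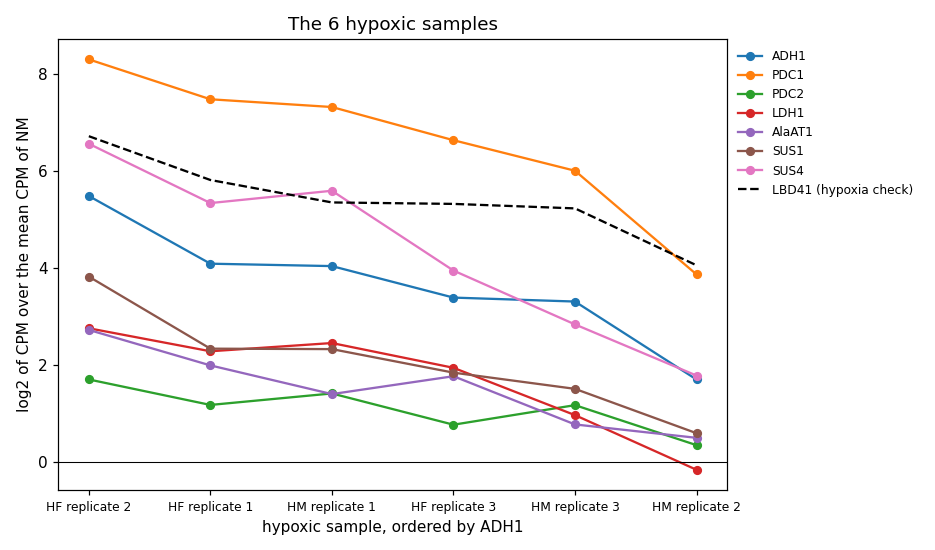
Level of the 7 genes and of LBD41 in each hypoxic sample as the log2 of CPM over the mean CPM of NM (y axis), with samples along the x axis in the order of ADH1 and lines joining the values of a gene. All lines have their highest point at HF replicate 2 and their lowest at HM replicate 2, where LDH1 falls below the NM mean.

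Each pair of paralogs was then compared within samples. PDC1 gave 62.9%, 24.6% and 44.7% of the CPM of PDC1 and PDC2 in HM, 7.65%, 3.80% and 2.13% in NF, 69.1%, 73.3% and 62.3% in HF, and 6.93%, 1.12% and 0.90% in NM. PDC2 was the more abundant transcript in each normoxic sample and PDC1 in each HF sample, while HM had samples of both kinds. The log2 ratio of PDC1 to PDC2 averaged -0.39 ± 1.19 in HM, -4.55 ± 0.95 in NF, 1.11 ± 0.37 in HF and -5.56 ± 1.60 in NM (SD, n = 3). HM differed from NM by 5.18, HF from NM by 6.68 and HF from NF by 5.66, each with p = 0.1 in an exact two-sided permutation test, the smallest value that 3 against 3 samples allow, and 0.167 after adjustment over 10 comparisons. In NF vs NM the difference was 1.01 (exact p = 0.4) and in HF vs HM 1.5 (exact p = 0.2).

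In the sucrose synthase pair, SUS4 was the gene with the lower level in NM. SUS1 gave 49.5%, 80.5% and 78.9% of the CPM of SUS1 and SUS4 in HM, 78.6%, 91.0% and 93.4% in NF, 54.1%, 58.5% and 68.7% in HF, and 81.2%, 97.0% and 96.0% in NM. In each HF sample SUS4 had a larger share of the pair than in any normoxic sample. The log2 ratio of SUS1 to SUS4 averaged 1.3 ± 1.15 in HM, 2.97 ± 0.99 in NF, 0.62 ± 0.46 in HF and 3.77 ± 1.47 in NM (SD, n = 3). The difference was -2.47 in HM vs NM, -3.15 in HF vs NM and -2.35 in HF vs NF (exact permutation p = 0.1 each, 0.167 adjusted). NF vs NM gave -0.81 (exact p = 0.5) and HF vs HM -0.68 (exact p = 0.4). Neither ratio could reach an adjusted p under 0.05 at this number of samples.

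**Figure D4:**
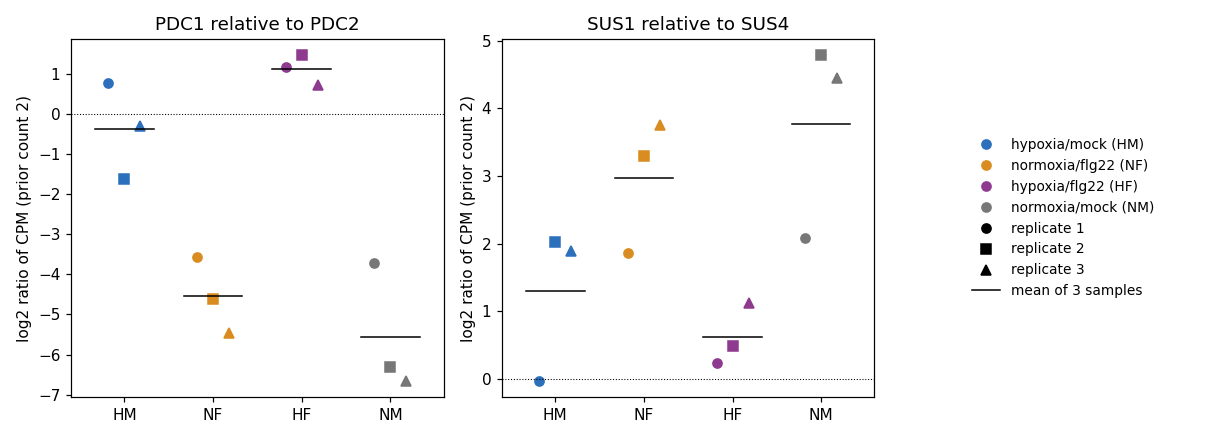
Log2 ratio of CPM (prior count 2) of PDC1 to PDC2 and of SUS1 to SUS4 in every sample, with groups along the x axis, a symbol for each replicate number and a line at the mean of 3 samples. PDC1 exceeds PDC2 in all 3 HF samples (ratio above 0, the dotted line), and NM replicate 1 stands closer to the hypoxic samples than the other NM samples in both ratios.

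NM replicate 1 and NF replicate 1 had the highest level of PDC1, LDH1 and SUS4 in their groups. The 3 root markers summed to 42.3, 17.0 and 16.0 CPM in NF replicates 1 to 3 and to 46.9, 7.34 and 13.0 CPM in NM. They summed to 16.2, 9.99 and 7.74 CPM in HM and to 24.4, 11.6 and 15.5 CPM in HF, so that replicate 1 was highest in every group. In NM all 3 markers were highest in replicate 1, with CASP1, a gene of the root endodermis, at 30.9, 4.41 and 9.14 CPM. The part of root tissue in the levels of PDC1, LDH1 and SUS4 was not tested. Leaf markers differed less, with sums of 26660 to 33050 CPM in NF and 28210 to 31470 CPM in NM.

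The wider pathway was followed in lists of related genes. Of 10 other genes of the alcohol dehydrogenase and pyruvate decarboxylase families, 1 was called higher in NF vs NM (6.43% of all tested genes) and again in HF vs NM (7.85%), and none was called lower, so that the count was near these shares. This was AT1G64710, a member of the alcohol dehydrogenase superfamily, with 165, 29.3 and 54.4 CPM in HM, 289, 311 and 346 CPM in NF, 339, 217 and 312 CPM in HF, and 50.7, 28.5 and 49.4 CPM in NM. It was thus high in every flg22 sample and, among mock samples, only in HM replicate 1. Its log2FC was 2.88 ± 0.54 (SE) in NF vs NM (adjusted p = 0.00755) and 2.75 ± 0.54 in HF vs NM (adjusted p = 0.00728). The 2 further pyruvate decarboxylase genes were low, as PDC4 averaged 3.88 ± 1.14, 1.96 ± 0.94, 2.93 ± 0.42 and 2.69 ± 1.07 CPM in HM, NF, HF and NM, and PDC3 averaged 1.04 CPM or less in every group.

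Of 7 genes for the removal of acetaldehyde and lactate, 2 were called higher in HF vs NM, where 7.85% of all tested genes were, and none in other comparisons. NIP2;1, an aquaporin-family channel known to carry lactic acid, had 82.8, 3.26 and 22.6 CPM in HM, 0.78, 0.41 and 0 CPM in NF, 80.3, 192 and 37.7 CPM in HF, and 0.79, 0.19 and 0.09 CPM in NM. Its order of the hypoxic samples was that of SUS4 and LDH1. The log2FC was 8.11 ± 1.43 (SE) in HF vs NM (adjusted p = 0.00446), on 21, 4 and 2 counts in NM, and 7.30 without HF replicate 2 or 9.52 without NM replicate 1. In HM vs NM the log2FC was 6.60 with an adjusted p of 0.215. It was 7.14 (adjusted p = 0.0365) without HM replicate 2 and 5.11 (0.50) without HM replicate 1. The adjusted p ranged from 4.43e-07 to 0.93 over the alternatives. ACS, the acetyl-CoA synthetase that takes up acetate, rose by 0.78 ± 0.17 in HF vs NM (adjusted p = 0.0124), with 160, 197 and 181 CPM in HF against 112, 93.2 and 109 CPM in NM. Its call was lost without NM replicate 2 (0.0588) or with library size as the only scaling (log2FC 0.49, adjusted p = 0.109), within a range of 1.57e-04 to 0.109.

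Of 14 genes of alanine, GABA and glutamate metabolism, 12 were tested, and 1 was called higher in NF vs NM (6.43% of all tested genes), HF vs NM (7.85%) and HF vs HM (3.84%), a count near these shares. GAD4, a glutamate decarboxylase that makes GABA, had 15.1, 0.75 and 3.33 CPM in HM, 141, 197 and 204 CPM in NF, 134, 216 and 239 CPM in HF, and 2.04, 1.95 and 2.98 CPM in NM. All 6 flg22 samples were far above all 6 mock samples. The log2FC was 6.28 ± 0.89 (SE) in NF vs NM (adjusted p = 0.00262), 6.40 ± 0.90 in HF vs NM (adjusted p = 0.00183) and 4.93 ± 0.83 in HF vs HM (adjusted p = 0.0133). In HF vs HM it was 6.57 without HM replicate 1, and the call was lost without HM replicate 3 (0.0834), without HF replicate 3 (0.0518) or in a fit of HF and HM only (0.0645). AlaAT2, the close relative of AlaAT1, averaged 20.7 ± 1.09 CPM in HM, 14.9 ± 2.38 CPM in NF, 17.3 ± 3.09 CPM in HF and 14.7 ± 2.26 CPM in NM, and was not called in any comparison.

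No call was made in the lists of carbohydrate genes around SUS1 and SUS4. None of the 4 other sucrose synthases, of 7 tested invertases or of 12 tested genes for hexose phosphorylation and UDP-glucose use passed the cutoffs in edgeR in any of the 6 tests. The median log2FC in HF vs NM was 0.18 for the sucrose synthases SUS2, SUS3, SUS5 and SUS6, 0.07 for the invertases and 0.16 for the hexose genes, against -0.05 for all tested genes and 2.93 for the 7 genes. Of the 12 hexose genes, 4 were higher in every HF sample than in every NM sample, compared to 14.8% of tested genes, and 1 was lower. The fructokinase gene AT2G31390, among these 4, had a log2FC of 1.68 in HF vs NM (adjusted p = 0.0870 in edgeR). SUS3 averaged 10.6 ± 2.93 CPM in HM, 6.21 ± 2.89 CPM in NF, 8.17 ± 1.95 CPM in HF and 6.91 ± 3.59 CPM in NM.

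**Figure D5:**
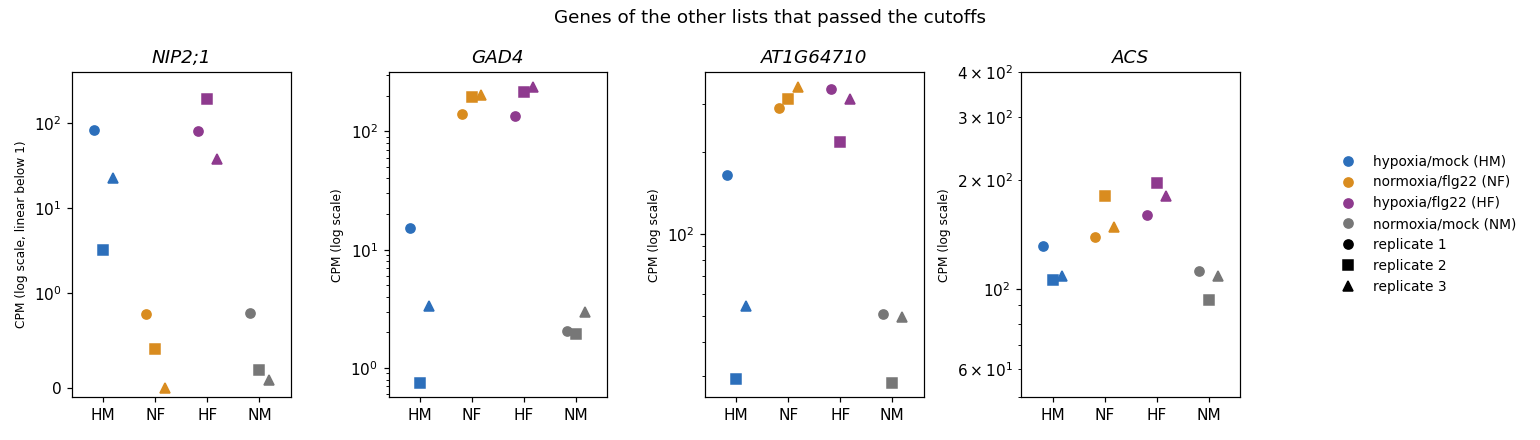
CPM in every sample of NIP2;1, GAD4, AT1G64710 and ACS, the genes of the related lists that passed the cutoffs in at least 1 comparison, on log scales (linear below 1 CPM for NIP2;1), with groups along the x axis and a symbol for each replicate number. NIP2;1 is higher in hypoxic samples (3.26 to 192 CPM) than in normoxic ones (at most 0.79 CPM), and GAD4 is high in flg22 samples (134 to 239 CPM).

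Likeness over the 12 samples was described with Pearson's r of log2 CPM against 18455 genes with a mean of at least 1 CPM. These samples share treatments and replicates, so r describes these libraries only. For PDC1 the closest genes were AT5G66985 (r = 0.992), AT3G06435 (0.990) and NIP2;1 (0.981), and for ADH1 they were SRO5 (0.982), CIPK25 (0.981) and SRO4 (0.975). SUS1 was closest to AT2G47560 (0.977), SRO5 (0.972) and SRO4 (0.971), and SUS4 to the ethylene biosynthesis gene ACO1 (0.980), PDC1 (0.972) and AT5G66985 (0.970). LDH1 had the fructokinase gene AT2G31390 (0.965), AT1G53340 (0.964) and ACO1 (0.963) as closest genes, and PDC2 had AT4G02170 (0.945), AT1G07870 (0.942) and ADH1 (0.929). AlaAT1 stood apart from the other 6, with r of 0.60 to 0.79 to each of them, and was closest to ERF4 (0.983), PERK1 (0.981) and AT1G32920 (0.980). The lowest r among the other 6 was 0.82, between PDC2 and LDH1.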

How the data were processed

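RNA-seq of 12 samples of polyA RNA was analysed. After read filtering (SOAPnuke) and alignment (HISAT), the authors deposited expected counts per gene without normalization, and the submitters' processing notes name TAIR10, HISAT and DESeq2. How reads were counted, and whether by strand, is not given in the sources used here. Of the deposited estimated counts, 2.301% were not whole and were rounded, for tests that had been planned for counts. The 4 columns of the authors' group means were not used. Samples were grouped by their labels.

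TMM factors were 0.828 to 1.23, and tests were run in edgeR 4.0.16 (quasi-likelihood, R 4.3.3) in a fit of all 12 samples with 4 group means, filterByExpr at a minimum count of 10 and Benjamini-Hochberg adjustment over 20074 genes. Cutoffs were an adjusted p under 0.05 and an absolute log2FC above 0.585 (1.5-fold). The fits were tested on simulated data. CPM were scaled to the effective library size, and depth limits only the lowest values. Replicates differed by 30.2 to 193 times sampling noise (chi-square per degree of freedom). Deviations from group means of same-numbered samples correlated in each pair of HM and NM (r of 0.26 to 0.68) and of NF and NM (0.31 to 0.77). It also held for HF replicates 1 and 2 with the other groups (r of 0.42 to 0.58). It did not hold for HF replicate 3, with r of -0.11 to NF, -0.047 to HM and -0.0089 to NM. The main fit had no block, so its p-values ignore this pairing in every comparison. For HM and NF against NM, differences within pairs by the labels' replicate numbers and fits with a replicate block were given beside it.

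Paralog ratios (log2 CPM, prior count 2) were compared by exact two-sided permutation tests over 10 comparisons. Gene models and sequences came from RefSeq TAIR10.1, to which all 23396 gene identifiers matched. The count table holds no coordinates to compare with it. From the related lists, genes past the cutoffs were named, at most 6 per list, and for each of the 7 genes the 3 with the highest r. The genes and lists were chosen with earlier results of these data known. Alternatives were DESeq2 1.42.0, fits of 2 groups, other scaling, no filter, a replicate block and leaving out each sample. DESeq2 with the block was added after seeing the data. Python 3.11.15 with numpy, scipy, pandas and matplotlib was used for the rest.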

Additional observations from a re-analysis of the deposited data

How the results depend on the processing

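The direction of the 7 genes in HM vs NM, HF vs NM and HF vs NF held under each alternative, but calls did not. In HM vs NM, DESeq2 on all samples called 3 of the 7 genes and 166 genes in all, DESeq2 on 2 groups 4 and 151, edgeR with the replicate block 1 and 13, and DESeq2 with the block 4 and 476. In HF vs NF the same fits called 4 and 110, 6 and 144, 1 and 21, and 6 and 371. In HF vs HM, DESeq2 called 1694 genes on all samples and 1422 on 2 groups, edgeR on 2 groups called 0 of the 7 and 290 in all, library size alone called 0 of the 7, the block gave 1915 genes, and DESeq2 with the block 2 of the 7 and 2793. In NF vs NM the block gave 2315 genes and DESeq2 with it 2855. In HF vs NM the block gave 3362 and DESeq2 with it 3923, and in the interaction DESeq2 with the block gave 20. The causes were not tested. In comparisons with HF, same-numbered samples deviated together for replicates 1 and 2 but not for replicate 3. Of these comparisons, the block in edgeR changed a call among the 7 for PDC1 (HF vs NF, adjusted p = 0.0288). DESeq2 with the block called LDH1 in HF vs HM (1.25, adjusted p = 0.0250), which no other fit did.

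Without one sample each, the calls among the 7 ranged from 0 to 2 in HM vs NM, 0 to 1 in NF vs NM, HF vs NF and HF vs HM, 4 to 7 in HF vs NM and 0 to 0 in the interaction. Over all genes they ranged from 0 to 55 in HM vs NM (55 without HM replicate 2, 1 without NF replicate 2), 859 to 1570 in NF vs NM (859 without NM replicate 2), 1362 to 2199 in HF vs NM (1362 without NM replicate 3), 0 to 10 in HF vs NF (10 without HM replicate 2) and 35 to 1533 in HF vs HM (35 without HM replicate 3, 1533 without HM replicate 1).

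Signs turned only for values that were not called. Without one sample each, the log2FC in NF vs NM ranged from -0.23 to 0.28 for ADH1, -0.15 to 2.17 for PDC1, -0.20 to 0.26 for PDC2, -0.16 to 0.83 for LDH1 and -0.12 to 2.27 for SUS4. In HF vs HM it ranged from -0.059 to 0.45 for PDC2. In the interaction it ranged from -0.86 to 1.59 for PDC1, -0.044 to 0.49 for PDC2, -0.41 to 0.23 for AlaAT1 and -0.92 to 2.55 for SUS4.

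Scaling by library size alone moved the median log2FC of all genes to -0.32 in HF vs NM, with 1289 genes called higher and 1499 lower against 1576 and 519 with TMM, and PDC2 (0.97, adjusted p = 0.111), LDH1 (2.02, 0.0744) and ACS (0.49, 0.109) lost their calls. It gave 1101 higher and 364 lower in NF vs NM, against 1291 and 128, and 537 and 345 in HF vs HM, against 770 and 109. The paralog ratios kept their sign with a prior count of 0.5 and without any one sample (4.60 to 6.10 for PDC1 to PDC2 in HM vs NM). A replicate block cannot change these differences. The mean of the differences within pairs equals the difference of the group means (5.18 in that comparison).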

Other observations

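FRK1, a receptor kinase gene widely used as a marker of the flg22 response, did not separate the flg22 from the mock samples. It had 2.53, 0.35 and 46.4 CPM in HM, 2.26, 19.9 and 65.5 CPM in NF, 2.25, 11.6 and 17.7 CPM in HF, and 0.38, 0.79 and 38.2 CPM in NM. In each group replicate 3 was highest, the mock groups included. WRKY33, a transcription factor gene of the same response, had 635 to 1735 CPM in NF and 1364 to 1677 CPM in HF, against 26.3 to 60.0 CPM in NM, and 647, 60.8 and 165 CPM in HM replicates 1 to 3.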
